A study of Mus musculus with 16 samples.

Results

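Genes of the endoderm and of the yolk sac endoderm were followed across 8 sorted populations of differentiating mouse embryonic stem (ES) cells. The set holds 31 genes chosen by symbol for their place in endoderm biology. Of these, 29 had a probe set annotated to that gene alone, out of 18193 genes with such a probe set on the array, and the probe set with the highest mean stood for each gene. The probe set of the transferrin gene Trf is shared with Srprb, and no probe set carried the symbol of Soat2, a sterol acyltransferase, so neither was measured here. By role, the 29 genes are 10 serum carriers and apolipoproteins (Ttr, Rbp4, Afp, Alb, Apoa1, Apoa2, Apoa4, Apob, Apoc2 and Apom), 3 fibrinogen chains (Fga, Fgb and Fgg), 5 endocytic receptors and adaptors (Lrp2, Cubn, Amn, Dab2 and Pdzk1), 6 transcription factors and coregulators (Foxa1, Foxa2, Foxa3, Hnf4a, Rhox5 and Cited1), 3 keratins (Krt8, Krt18 and Krt19) and 2 enzymes (Car4 and Ctsh).

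The visceral endoderm is the epithelium that surrounds the early embryo and later lines the outer face of the yolk sac, next to the mesoderm in which the first blood cells and vessels form. Before there is a liver it makes many of the serum proteins a liver makes, and it takes up proteins from its surroundings through the large receptors megalin (Lrp2) and cubilin (Cubn). Embryoid bodies, the aggregates in which ES cells differentiate, form such a layer, and they also form definitive endoderm, the precursor of gut, liver and lung, in which Foxa2 is an early marker.

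CCE ES cells, kept on irradiated embryonic fibroblasts and separated from them before the experiment, were grown as embryoid bodies without leukemia inhibitory factor and sorted by antibody staining after fixation in ethanol and acetic acid. Day 2.5 was sorted by VEGF-R2, day 3.5 by CD41 and separately by CD144 (VE-cadherin), and day 6.5 by CD144 again, and both the positive and the negative side of each sort were kept. In the paper the CD41 and CD144 positive cells are a subset of the VEGF-R2 positive cells, while its purity plots show 1 marker at a time. The paper describes the CD41 negative cells as negative for VEGF-R2 too, so the CD41 comparison also carries a difference in VEGF-R2. It names the CD144 negative cells by CD144 only. All populations come from 1 cell line, and no genetic change or drug is named in the labels. Each population was measured on 2 arrays whose RNA came from separate experiments. The question put to these genes is where, and on which side of each sort, endoderm RNA is found in a study that sorted for blood and endothelial precursors.

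Values are array signals on a linear scale on which every array has a trimmed mean of 500. Over all probe sets and arrays the median signal was 85.8, the 25th percentile 23.4 and the 75th percentile 454.7. Differences are log2 fold changes of signal plus 6 with their standard error, from one limma fit over all 16 arrays, and a gene is called at an adjusted p under 0.05 over 45037 probe sets. Signals of different probe sets have no common scale, so levels were compared within a gene. Summed signals of a marker list, which its brightest probe sets dominate, were compared between populations and not between lists. Beside the endoderm genes, the sorting markers followed their labels: Cdh5, the gene of CD144, read 3166 and 2219 in CD144 positive and 31.035 and 37.2 in CD144 negative cells at day 6.5, and Itga2b, the gene of CD41, read 7523 and 5299 in CD41 positive and 227 and 195 in CD41 negative cells. Duplicate arrays correlated less well in positive populations (Spearman's rho over probe sets 0.873 to 0.895) than in negative ones (0.945 to 0.955). The hybridization controls, RNA added to every sample, had geometric means of 8122 to 13755 on the positive and 2490 to 4309 on the negative arrays, so that the 2 kinds of array also differ in this and every comparison across a sort carries it; its part in the results was not tested.

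Most endoderm genes were at their highest at day 6.5. Here as in all that follows, RNA from a whole sorted population does not tell fewer cells of a type from less RNA per cell. By mean signal, 12 of the 29 were highest in the CD144 positive cells of that day and 10 in their CD144 negative counterparts, of which 5 (Ttr, Rbp4, Apoa1, Fga and Fgb) and 3 (Cubn, Foxa2 and Krt8) also passed the test between these populations. The 12 were Ttr, Rbp4, Afp, Apoa1, Apoa2, Apob, Apoc2, Apom, the 3 fibrinogen chains and Ctsh, all of them secreted proteins except the lysosomal protease Ctsh. The 10 were Cubn, Amn, Dab2, Foxa1, Foxa2, Foxa3, Cited1 and the 3 keratins, none of which is secreted. This is an order of means only. The place of Afp in it depended on the probe set, and the secreted Alb and Apoa4 were highest in other populations. Some of these ranks were near ties, such as Dab2 with means of 1151 in CD144 negative and 1148 in CD144 positive cells. Both arrays of the highest population lay above all 14 other arrays for 8 of the 12 and 7 of the 10. Ranks and overlaps were not counted over all probe sets, so no background share stands beside these counts. Of the remaining genes, Lrp2 and Rhox5 were highest in VEGF-R2 negative, Pdzk1 in CD41 negative, Hnf4a in VEGF-R2 positive, Alb in CD41 positive, and Car4 and Apoa4 in the CD144 positive cells of day 3.5. For 24 genes both arrays of some population exceeded the median of all values, and for Alb, Apoa4, Fga, Fgg and Hnf4a they did not in any population.

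**Figure D1:**
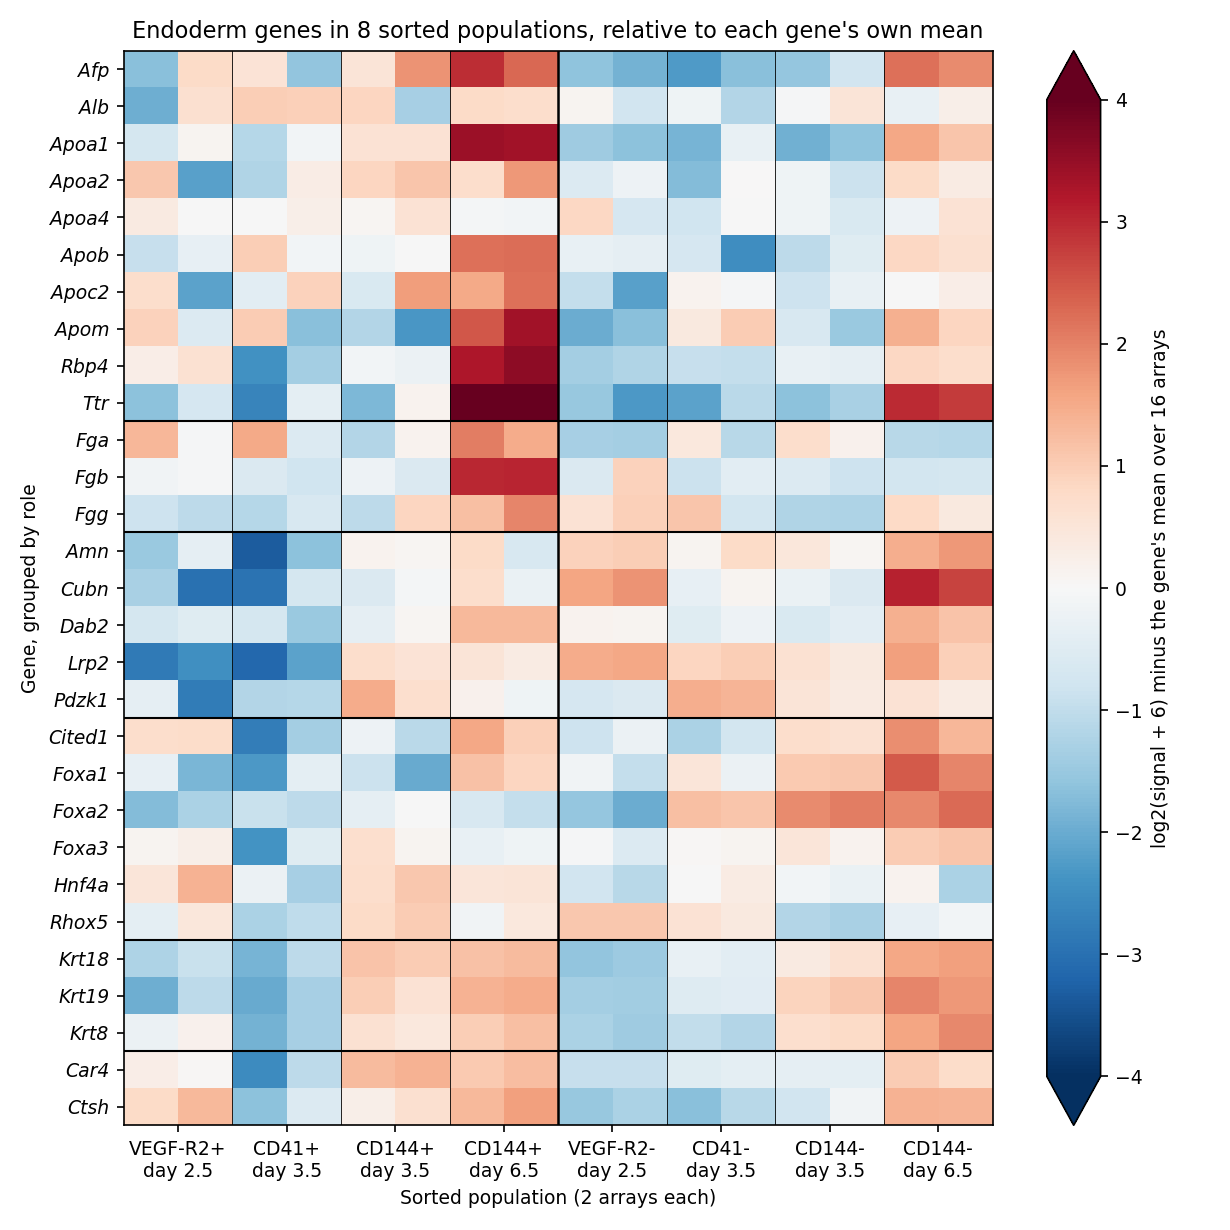
Signals of the 29 endoderm genes (rows, grouped by role) on all 16 arrays (columns, 2 per population), as log2(signal + 6) minus the gene's own mean over the arrays, with red above and blue below that mean. Serum carriers such as Ttr, Rbp4 and Apoa1 are deepest red in CD144 positive cells at day 6.5. Cubn, Foxa2 and the keratins are red in CD144 negative cells at day 6.5. The keratins are also red in CD144 positive cells of that day, and Foxa2 in CD144 negative cells of day 3.5.

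Across the 4 sorts the genes divided unequally. In VEGF-R2 positive against negative cells at day 2.5, 5 endoderm genes were higher and 5 lower, where 11.1% and 13.8% of all probe sets were. In CD41 positive against negative cells at day 3.5, 1 was higher and 12 lower, against 13.5% and 15.8% of all probe sets, and the median over the 29 genes was -0.94 where that over all probe sets was 0.10. In these CD41 positive cells the endoderm genes thus lay mostly on the low side. In CD144 positive against negative cells at day 3.5, 4 were higher and 2 lower, against 9.49% and 10.5% of all probe sets. In the same sort at day 6.5, 5 were higher and 4 lower, against 9.41% and 10.1%. Outside the CD41 sort these counts were within a few genes of what the background share gives for 29 genes. By the kind of bound the study used, a 90% interval of the fold beyond 2, 4 of the 29 passed in the VEGF-R2 sort (8.46% of all probe sets), 5 in the CD41 sort (11.6%), 5 in the CD144 sort of day 3.5 (6.50%) and 7 in that of day 6.5 (5.82%). The VEGF-R2 count of 10 became 6 without either VEGF-R2 negative array, the CD41 count of 13 became 8 without CD41 negative replicate 2, the CD144 count of 6 at day 3.5 became 3 without CD144 negative replicate 1, and the count of 9 at day 6.5 became 5 without CD144 positive replicate 2 and 4 and 5 without CD144 negative replicates 1 and 2.

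Between populations of the same kind the calls ran mostly one way. From VEGF-R2 positive cells to CD144 positive cells of day 3.5, 7 endoderm genes rose and 0 fell, against 4.87% and 2.84% of all probe sets, and from there to CD144 positive cells of day 6.5, 9 rose and 0 fell, against 3.20% and 2.64%. From VEGF-R2 positive to CD41 positive cells, 0 rose and 6 fell, against 5.02% and 4.82%. Between the CD144 and the CD41 positive cells of day 3.5, 13 genes were higher in the CD144 positive cells and 0 lower, against 6.06% and 3.72%, with medians of 1.45 over the 29 genes and -0.02 over all probe sets. These comparisons share arrays, so their counts are not independent of one another. The last of them sets cells of 2 separate sorts side by side, and the negative cells of these sorts differed too. Summed keratin signals were 5213 to 5656 in CD41 negative and 12508 to 13903 in CD144 negative cells of day 3.5. Those of the 6 transcription factors and coregulators were 4525 to 5003 and 3282 to 3322. Other differences between the sorts cannot be told apart from the marker here. Among the negative populations, 3 rose and 0 fell from VEGF-R2 negative to CD41 negative cells (1.57% and 1.89% of all probe sets), and 5 rose and 2 fell from VEGF-R2 negative to CD144 negative cells of day 3.5 (3.90% and 3.24%). From day 3.5 to day 6.5 in CD144 negative cells 7 rose and 0 fell, where only 0.557% and 0.162% of all probe sets did. Medians over the 29 genes in these comparisons were 0.54, 0.97, -0.32, 0.28, 0.58 and 1.05 (in the order CD144 positive at day 3.5, CD144 positive at day 6.5, CD41 positive, CD41 negative, CD144 negative at day 3.5, CD144 negative at day 6.5), and those over all probe sets ranged from 0.02 to 0.06. The 90% bound was passed by 4 genes from VEGF-R2 positive to CD144 positive cells of day 3.5, against 3.16% of all probe sets. The 7 calls in that step became 4 without CD144 positive replicate 1, the 9 of the later step became 5 without CD144 positive day 3.5 replicate 2 or day 6.5 replicate 1, and the 13 between CD144 and CD41 positive cells became 8 without CD41 positive replicate 1 or CD144 positive replicate 2. In the negative populations the 3 calls became 1 without VEGF-R2 negative replicate 1, and the 7 of the day 6.5 step became 1, 2, 4 and 1 without CD144 negative day 3.5 replicates 1 and 2 and day 6.5 replicates 1 and 2. The 8 positive and the 8 negative arrays were also fitted apart. That gave 8 calls in place of 13 between CD144 and CD41 positive cells, and 8, 13 and 13 in place of 3, 7 and 7 in the negative populations.

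**Figure D2:**
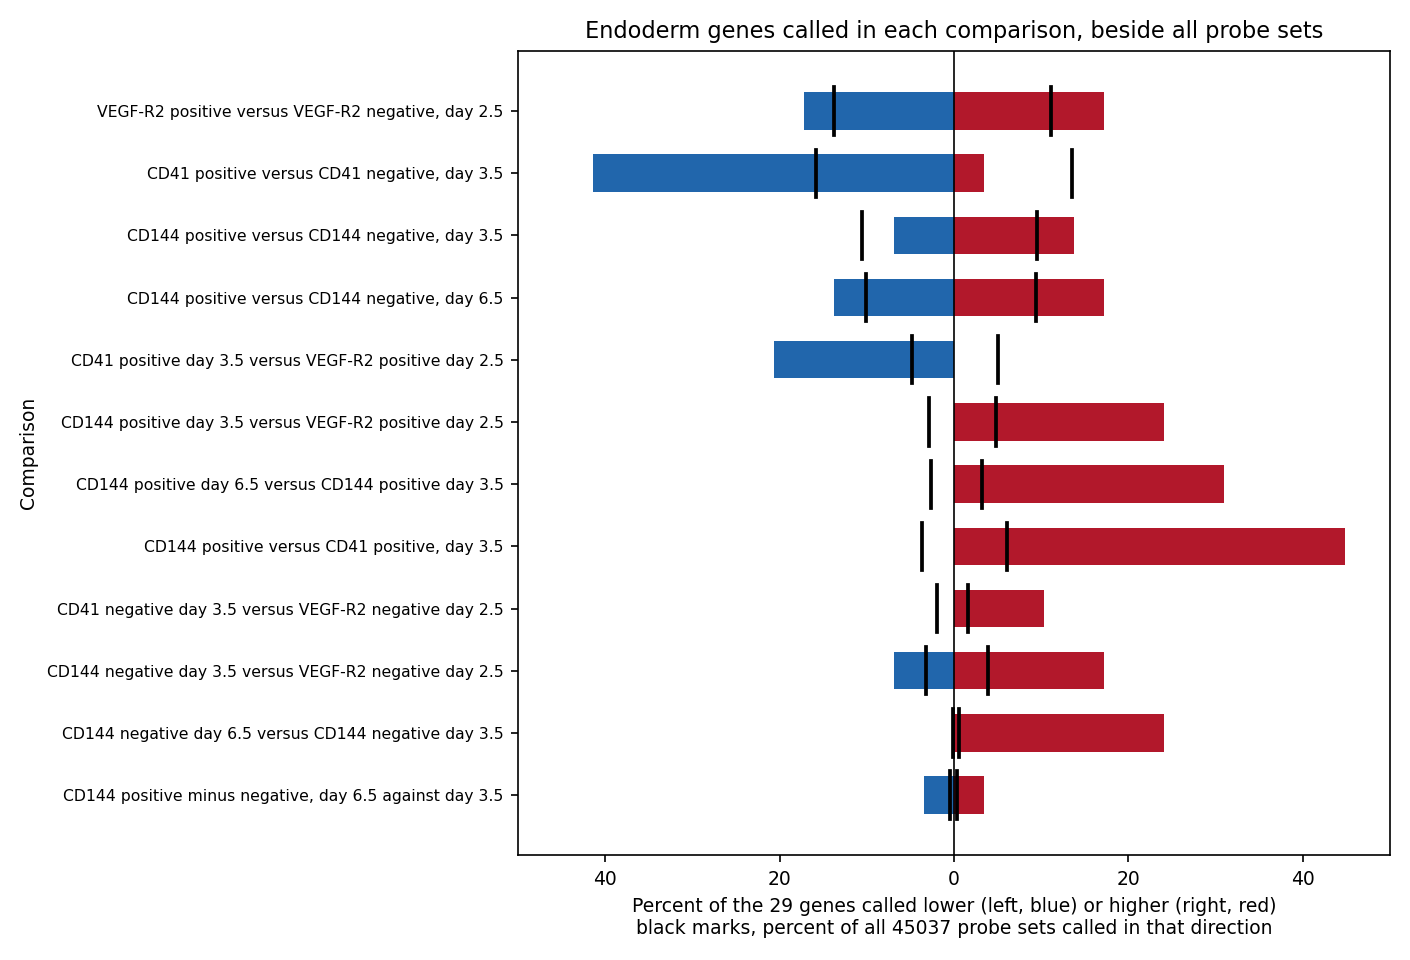
Percent of the 29 endoderm genes called lower (blue, left of 0) or higher (red, right of 0) in each comparison (rows), with black marks for the percent of all 45037 probe sets called in that direction; the last row is the difference between the CD144 sort at day 6.5 and at day 3.5. The bars exceed the marks most in CD144 positive against CD41 positive cells (13 genes higher) and in CD144 positive cells of day 6.5 against those of day 3.5 (9 genes higher).

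Of the 10 serum carriers tested, Ttr, Rbp4 and Apoa1 were higher in CD144 positive than negative cells of day 6.5, and the other 7 did not pass the test there. Ttr encodes transthyretin, which carries thyroid hormone and, bound to the retinol-binding protein Rbp4, vitamin A. Ttr read 4091 and 5533 in CD144 positive cells of day 6.5, 771 and 679 in CD144 negative cells of day 6.5, and 9.82 to 102 on the other 12 arrays. Both populations of day 6.5 thus lay above every earlier array, and the positive one above the negative. The difference between them was 2.71 ± 0.71 (SE, adjusted p = 0.0116, limma), the rise from day 3.5 was 6.43 ± 0.71 in CD144 positive cells (adjusted p = 4.37e-05, limma) and 4.36 ± 0.71 in CD144 negative cells (adjusted p = 0.00468, limma), and all 4 probe sets of Ttr were called in all of these. The call across the sort was lost without CD144 positive replicate 2 or either CD144 negative replicate (adjusted p 0.0552 to 0.0958, limma) and with a robust prior without trend (0.0519), and that of the rise in CD144 negative cells without either day 3.5 array or day 6.5 replicate 2 (0.0525 to 0.0801) and with that prior (0.0856).

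Rbp4 read 3718 and 4788 in CD144 positive and 697 and 640.5 in CD144 negative cells of day 6.5, a difference of 2.65 ± 0.27 (adjusted p = 4.01e-06, limma) that was called under every alternative setting tried. Rbp4 also differed across the sort of day 2.5: VEGF-R2 positive cells read 468 and 606 and VEGF-R2 negative cells 148 and 166, without overlap, a difference of 1.72 ± 0.27 (adjusted p = 0.000191, limma). Rbp4 then fell to 68.8 and 151 in CD41 positive cells (-2.32 ± 0.27 from VEGF-R2 positive cells, adjusted p = 2.72e-05) and rose by 3.57 ± 0.27 between the CD144 positive cells of day 3.5 and day 6.5 (adjusted p = 9.43e-07, limma). In CD144 negative cells over the same days the change was 1.08 ± 0.27 and did not pass the threshold (adjusted p = 0.104, limma). A rise of 0.96 ± 0.27 from VEGF-R2 negative to CD144 negative cells of day 3.5 (adjusted p = 0.0407, limma) was lost without any 1 of the 4 arrays compared (0.154 to 0.265).

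Apoa1, the main protein of high-density lipoprotein, read 803 and 781 in CD144 positive and 218 and 157 in CD144 negative cells of day 6.5, against 106 and 108 and 14.0 and 19.0 in the respective cells of day 3.5. The positive cells were above the negative ones at both days, with no overlap, by 2.34 ± 0.57 at day 3.5 (adjusted p = 0.00760, limma) and 2.06 ± 0.57 at day 6.5 (adjusted p = 0.0169, limma). From day 3.5 to day 6.5 Apoa1 rose by 2.82 ± 0.57 in CD144 positive cells (adjusted p = 0.00802, limma) and by 3.09 ± 0.57 in CD144 negative cells (adjusted p = 0.0145, limma), on all 4 of its probe sets. Its difference at day 3.5 was called on 1 of the 4 probe sets only, the others ranging down to 0.56, and was lost without CD144 negative replicate 1 (adjusted p = 0.0660). Its difference at day 6.5 was called on 2 of the 4 and was lost without any 1 of the 4 arrays compared (adjusted p 0.0516 to 0.119). Of the rises over time, that in CD144 positive cells was lost without day 3.5 replicate 2 or day 6.5 replicate 1 (0.0517 and 0.0601), and that in CD144 negative cells without any 1 of the 4 arrays (0.0730 to 0.179).

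**Figure D3:**
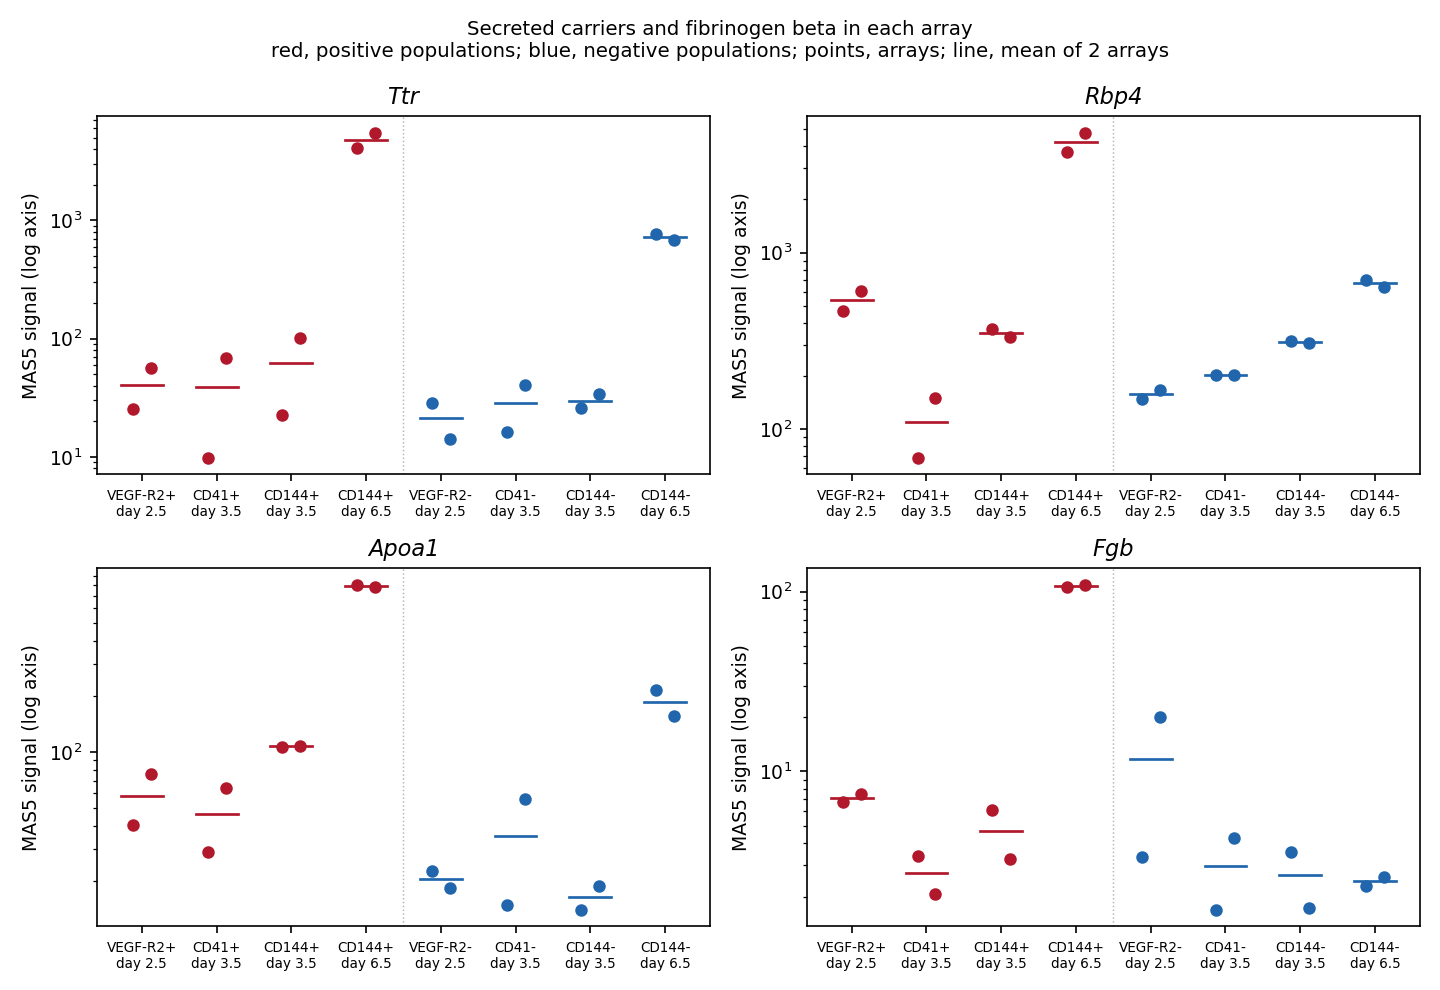
Signals of Ttr, Rbp4, Apoa1 and Fgb on each array (points) with the mean of the 2 arrays (lines), on log axes of signal, for the 4 positive (red) and 4 negative (blue) populations. In all 4 panels the CD144 positive arrays of day 6.5 are the highest, from 4091 and 5533 for Ttr to 106.6 and 109.5 for Fgb.

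The remaining lipid carriers passed the test in fewer comparisons. Apom, which carries sphingosine-1-phosphate, read 274 and 510.0 in CD144 positive and 130 and 85.4 in CD144 negative cells of day 6.5, and its rise in CD144 positive cells from day 3.5, where it read 16.5 and 4.08, was 4.66 ± 0.82 (adjusted p = 0.00291, limma). Across the sort at day 6.5 its difference of 1.77 ± 0.82 did not pass the threshold (adjusted p = 0.152, limma). Apob, the structural protein of very-low-density lipoprotein, read 299.8 and 310.6 in CD144 positive cells and 114 and 98.3 in CD144 negative cells of day 6.5, and rose by 2.31 ± 0.61 in the former from day 3.5 (adjusted p = 0.0351, limma). That call was lost without any 1 of the 4 arrays (0.108 to 0.130), and the second probe set of Apob, at 0.79, was not called. Apob was also the gene called higher in CD41 positive cells (126 and 56.6 against 36.2 and 6.05, 2.01 ± 0.61, adjusted p = 0.0197, limma), a call lost without CD41 positive replicate 1 or CD41 negative replicate 2 (0.162 and 0.282). Apoa2, Apoc2, Alb and Apoa4 were called in none of the comparisons. Apoc2 reached 111 and 181 in CD144 positive cells of day 6.5, while the highest single signals of Alb, albumin, and of Apoa4 were 58.5 and 27.2.

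For Afp, alpha-fetoprotein, the result depended on the probe set. The one with the highest mean read 294 and 184 in CD144 positive and 173 and 138 in CD144 negative cells of day 6.5 and 2.10 to 130 elsewhere, and was called in no comparison. The next of its 5 probe sets read 322 and 399.6 in CD144 positive and 438 and 564 in CD144 negative cells of day 6.5 and at most 28.2 on all earlier arrays. On that probe set Afp rose from day 3.5 by 4.80 ± 0.84 in CD144 positive (adjusted p = 0.00284, limma) and by 4.91 ± 0.84 in CD144 negative cells (adjusted p = 0.00785, limma). Of the 5, 2 were called higher at day 6.5 than at day 3.5 in CD144 positive cells and 1 in CD144 negative cells. Across the CD144 sort at day 6.5 none of the 5 Afp probe sets was called, with differences from -0.46 to 0.57.

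The fibrinogen chains, which lie next to each other in the mouse genome and are assembled into the clotting protein, were dim on most arrays. Fgb read 106.6 and 109.5 in CD144 positive cells of day 6.5 and 1.70 to 20.2 on the other 14 arrays. It was higher than in CD144 negative cells of day 6.5 by 3.75 ± 0.59 (adjusted p = 0.000213, limma), a call made under every alternative setting tried. The size of that difference depended on the offset, since the CD144 negative cells read 2.31 and 2.60, under the 6 that was added: it was 2.02 with an offset of 32 and 1.11 with signals under 50 set to 50. Fgb was also higher than in CD144 positive cells of day 3.5 by 3.43 ± 0.59 (adjusted p = 0.00236, limma; 0.0649 when only those 4 arrays were fitted). Fga read 67.0 and 43.1 in CD144 positive and 2.16 and 2.07 in CD144 negative cells of day 6.5, a difference of 2.88 ± 0.79 (adjusted p = 0.0155, limma). Its signals there overlapped those of CD41 positive cells (44.7 and 6.10), with VEGF-R2 positive cells at 38.6 and 11.1, and lay below the median of all values. The call was lost without CD144 positive replicate 1 or either CD144 negative array (0.0733 to 0.0859). With signals under 50 set to 50 the Fga difference was 0.21 (adjusted p = 0.199). Fgg read 44.2 and 77.9 in CD144 positive and 31.7 and 22.9 in CD144 negative cells of day 6.5, a difference of 0.98 ± 0.75 that did not pass the threshold (adjusted p = 0.421, limma).

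Promoter sequences are shown for 4 of the 5 members called higher on the CD144 positive side at day 6.5. These genes were chosen by that call, and whether they share regulation was not tested. The sequences are the 250 bases before the start of transcription from RefSeq (GRCm38.p6), written along the gene's strand with matches to 3 motif families in capitals. The families, searched on both strands, were an HNF1 half-site, a forkhead core and a GATA core. The HNF1 half-site was searched as GTTAAT. The forkhead core was searched as TGTTTAC and in the variant spelling TATTTAC, and a further spelling searched was TGTTTGC. The GATA core was searched as AGATAA, with TGATAA as its variant. No match printed overlaps another.
Apoa1, chr9:46228380-46228629, plus strand: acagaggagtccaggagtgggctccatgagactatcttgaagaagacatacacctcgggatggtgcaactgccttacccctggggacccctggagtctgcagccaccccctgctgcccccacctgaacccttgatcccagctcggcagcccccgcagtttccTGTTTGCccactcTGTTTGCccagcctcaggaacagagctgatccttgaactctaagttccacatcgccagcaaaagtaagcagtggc
Fga, chr3:83025903-83026152, plus strand: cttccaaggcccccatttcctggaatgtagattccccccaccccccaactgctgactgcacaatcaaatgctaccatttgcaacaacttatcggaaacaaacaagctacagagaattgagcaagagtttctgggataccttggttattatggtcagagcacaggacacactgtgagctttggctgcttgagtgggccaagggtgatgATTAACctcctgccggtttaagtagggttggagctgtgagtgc
Fgb, chr3:83049864-83050113, minus strand: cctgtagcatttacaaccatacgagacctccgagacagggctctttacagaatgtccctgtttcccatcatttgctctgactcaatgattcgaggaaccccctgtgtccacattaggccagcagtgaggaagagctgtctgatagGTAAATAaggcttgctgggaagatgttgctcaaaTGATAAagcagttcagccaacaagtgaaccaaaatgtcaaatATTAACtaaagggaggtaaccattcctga
Rbp4, the second of 2 start sites, chr19:38125322-38125571, minus strand: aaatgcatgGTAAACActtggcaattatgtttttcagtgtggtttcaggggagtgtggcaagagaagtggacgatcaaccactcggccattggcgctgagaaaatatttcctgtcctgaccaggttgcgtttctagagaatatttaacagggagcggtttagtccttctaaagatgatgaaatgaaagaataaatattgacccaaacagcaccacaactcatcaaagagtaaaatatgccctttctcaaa
The Apoa1 promoter holds TGTTTGC at 2 places, from 88 to 82 and from 75 to 69 bases before the start. ATTAAC, the HNF1 half-site read from the opposite strand, stands 43 to 38 bases before the start of Fga and 29 to 24 bases before that of Fgb, which also holds GTAAATA at 105 to 99 and TGATAA at 71 to 66. The Rbp4 promoter holds GTAAACA at 241 to 235, and the promoter of its first start site, chr19:38124812-38125061, holds none of these letters. Over the 35 promoters of the 26 members that matched the RefSeq table, 8 held the HNF1 half-site (Afp, Alb, Apoc2, Dab2, Fga, Fgb, Foxa2 and Hnf4a), 8 the forkhead core (Afp, Alb, Apoa1, Apoa2, Apob, Fgb, Foxa1 and Rbp4) and 6 the GATA core. Among all 32851 RefSeq promoters searched, shares of 6.43%, 9.73% and 16.6% held them. These are matches of letters, and no binding was measured.

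Lrp2, Cubn and Amn showed another pattern, with lower signals in VEGF-R2 positive than in VEGF-R2 negative cells. Lrp2, megalin, read 54.7 and 71.5 in VEGF-R2 positive and 1192 and 1239 on the negative side of the VEGF-R2 sort, and 42.5 and 90.4 in CD41 positive and 759 and 838 in CD41 negative cells at day 3.5. These differences, -4.15 ± 0.28 (adjusted p = 5.06e-08, limma) and -3.56 ± 0.28 (adjusted p = 7.29e-08, limma), were the largest falls among the 29 genes in both comparisons, and 2 of the 3 Lrp2 probe sets were called in both. CD144 positive cells of day 3.5 did not share the low level. They read 685 and 621, next to 639 and 554.5 in CD144 negative cells (0.13, not called), and so stood 3.26 ± 0.28 above VEGF-R2 positive (adjusted p = 2.77e-06, limma) and 3.27 ± 0.28 above CD41 positive cells (adjusted p = 1.31e-06, limma). At day 6.5 Lrp2 read 599.7 and 523 in CD144 positive and 1337 and 826 in CD144 negative cells, -0.90 ± 0.28 (adjusted p = 0.0331, limma), a call lost without either CD144 positive array or CD144 negative replicate 1 (0.0731 to 0.321). A fall of 1.02 on the log2 scale from VEGF-R2 negative to CD144 negative cells of day 3.5 (SE 0.28, adjusted p = 0.0362, limma) was lost without any 1 of the 4 arrays (0.123 to 0.266).

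Cubn, cubilin, and Amn, amnionless, form the receptor complex that works beside megalin. Cubn read 34.1 and 6.34 in VEGF-R2 positive and 286 and 339 in VEGF-R2 negative cells (-3.83 ± 0.66, adjusted p = 0.000395, limma), and was highest in CD144 negative cells of day 6.5, at 832 and 632 against 155 and 76.6 in CD144 positive cells. That difference of -2.67 ± 0.66 (adjusted p = 0.00812, limma) was called on both Cubn probe sets, and was lost without CD144 positive replicate 2 or CD144 negative replicate 1 (0.0905 and 0.0713). Ttr and Rbp4 thus stood higher and Cubn lower on the positive side of 1 and the same sort. The rise of Cubn in CD144 negative cells from day 3.5, 3.32 ± 0.66 (adjusted p = 0.0230, limma), was lost without any 1 of the 4 arrays (0.0949 to 0.284). In neither sort of day 3.5 was Cubn called (adjusted p = 0.0629 for CD41 and 0.943 for CD144, limma). Its means were 30.8 and 86.0 in CD41 positive and negative and 73.45 and 67.8 in CD144 positive and negative cells. Amn read 4.18 and 26.8 in CD41 positive and 105 and 168.5 in CD41 negative cells (-2.93 ± 0.59, adjusted p = 0.000992, limma), and was also lower in VEGF-R2 positive cells (-1.89 ± 0.59, adjusted p = 0.0252, limma) and higher in CD144 than in CD41 positive cells of day 3.5 (2.59 ± 0.59, adjusted p = 0.00855, limma). The VEGF-R2 call was lost without VEGF-R2 positive replicate 1 or either negative array (0.106 to 0.187), and the last without CD41 positive replicate 1 or CD144 positive replicate 2 (0.115 and 0.0509).

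Dab2, the cytoplasmic adaptor of these receptors, rose on both sides of the CD144 sort. It read 358 and 489.6 in CD144 positive and 302 and 343 in CD144 negative cells of day 3.5, and 1143 and 1153 and 1269 and 1034 in the respective cells of day 6.5. The rises were 1.44 ± 0.24 (adjusted p = 0.00188, limma) and 1.81 ± 0.24 (adjusted p = 0.000818, limma). Across the sort at day 6.5 the difference was 0.00 ± 0.24 (adjusted p = 0.994, limma). Of the 4 Dab2 probe sets, 2 were called in the first rise, 1 in the second and 2 in the VEGF-R2 sort that follows. At day 2.5 Dab2 had read 287 and 328 in VEGF-R2 positive and 515 and 498 in VEGF-R2 negative cells (-0.71 ± 0.24, adjusted p = 0.0369, limma), a call lost without any 1 of the 4 arrays (0.0741 to 0.159). Pdzk1, a scaffold protein of the apical membrane, read 78.3 and 79.5 in CD41 positive and 510.2 and 475.8 in CD41 negative cells (-2.55 ± 0.52, adjusted p = 0.00123, limma). It was higher in CD144 positive cells of day 3.5, at 528 and 294, than in VEGF-R2 positive cells, whose arrays read 141 and 21.0 (2.67 ± 0.52, adjusted p = 0.00431, limma), and than in CD41 positive cells (2.24 ± 0.52, adjusted p = 0.0107, limma). The former call was lost without CD144 positive replicate 1 (0.0553), the latter without that array or CD41 positive replicate 1 (0.106 and 0.0654), and a rise of Pdzk1 from VEGF-R2 negative to CD41 negative cells (2.02 ± 0.52, adjusted p = 0.0418, limma) without any 1 of the 4 arrays (0.208 to 0.265).

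Foxa2, a forkhead factor of the endoderm, separated negative from positive populations from day 3.5 on. In the negative populations it read 146 and 105 at day 2.5, 1005 and 952 in CD41 negative and 1643 and 1820 in CD144 negative cells of day 3.5, and 1673 and 2096 in CD144 negative cells of day 6.5. The rises from VEGF-R2 negative cells were 2.92 ± 0.23 to CD41 negative (adjusted p = 8.16e-07, limma) and 3.74 ± 0.23 to CD144 negative cells (adjusted p = 4.86e-08, limma). In the positive populations Foxa2 stayed between 127 and 430.01, with a rise of 1.32 ± 0.23 from VEGF-R2 positive to CD144 positive cells of day 3.5 (adjusted p = 0.00167, limma). From day 3.5 on, no positive array reached the lowest negative one. The differences across the sorts were 0.26 ± 0.23 at day 2.5 (adjusted p = 0.451, limma), -2.12 ± 0.23 for CD41 (adjusted p = 2.24e-06, limma), and -2.16 ± 0.23 (adjusted p = 5.86e-06, limma) and -2.88 ± 0.23 (adjusted p = 2.56e-07, limma) for CD144 at day 3.5 and day 6.5. The last 3 were called under every alternative setting tried.

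Foxa1, a close relative of Foxa2, was also lower in CD144 positive than negative cells of day 3.5 (37.2 and 13.3 against 154 and 158, -2.49 ± 0.67, adjusted p = 0.0136, limma) and rose in CD144 positive cells to 170 and 137 at day 6.5 (2.46 ± 0.67, adjusted p = 0.0393, limma). The former call was lost without CD144 positive replicate 2 or either CD144 negative array (0.0789 to 0.129), the latter without CD144 positive day 3.5 replicate 2 or either day 6.5 array (0.105 to 0.236). Foxa3 was lower on the positive side of the CD41 sort (11.5 and 58.6 against 88.5 and 91.3, -1.51 ± 0.54, adjusted p = 0.0432, limma), a call lost without CD41 positive replicate 1 or either CD41 negative array (0.141 to 0.444). Hnf4a, a nuclear receptor needed in visceral endoderm, read 67.7 and 132 in VEGF-R2 positive and 25.1 and 18.7 in VEGF-R2 negative cells (1.87 ± 0.63, adjusted p = 0.0397, limma). Only 1 of its 4 probe sets was called there, and the call was lost without VEGF-R2 positive replicate 2 or either negative array (0.111 to 0.224).

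Rhox5 (Pem), a homeobox gene of extra-embryonic tissues that is also transcribed in ES cells, changed sides between sorts. It read 5260 and 5226 in VEGF-R2 negative and 1890 and 3424 in VEGF-R2 positive cells (-1.04 ± 0.23, adjusted p = 0.00268, limma), and 3707 and 3283 in CD41 negative and 1020 and 1238 in CD41 positive cells (-1.63 ± 0.23, adjusted p = 3.48e-05, limma). In the CD144 sort of day 3.5 the order was the reverse, with 4208 and 5017 in positive and 1095 and 1005 in negative cells (2.12 ± 0.23, adjusted p = 6.67e-06, limma). Rhox5 had by then fallen by 2.31 on the log2 scale from the VEGF-R2 negative to the CD144 negative cells (SE 0.23, adjusted p = 5.99e-06, limma). At day 6.5 the difference was 0.37 ± 0.23 (adjusted p = 0.298, limma). The VEGF-R2 call was lost without VEGF-R2 positive replicate 1 (0.0584). From VEGF-R2 positive to CD41 positive cells Rhox5 fell by 1.17 on the log2 scale (SE 0.23, adjusted p = 0.00258, limma), a call lost without VEGF-R2 positive replicate 2 (0.0532). Cited1, a coregulator that binds CBP, read 225 and 229 in VEGF-R2 positive and 14.6 and 49.5 in CD41 positive cells (-2.79 ± 0.47, adjusted p = 0.000780, limma).

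**Figure D4:**
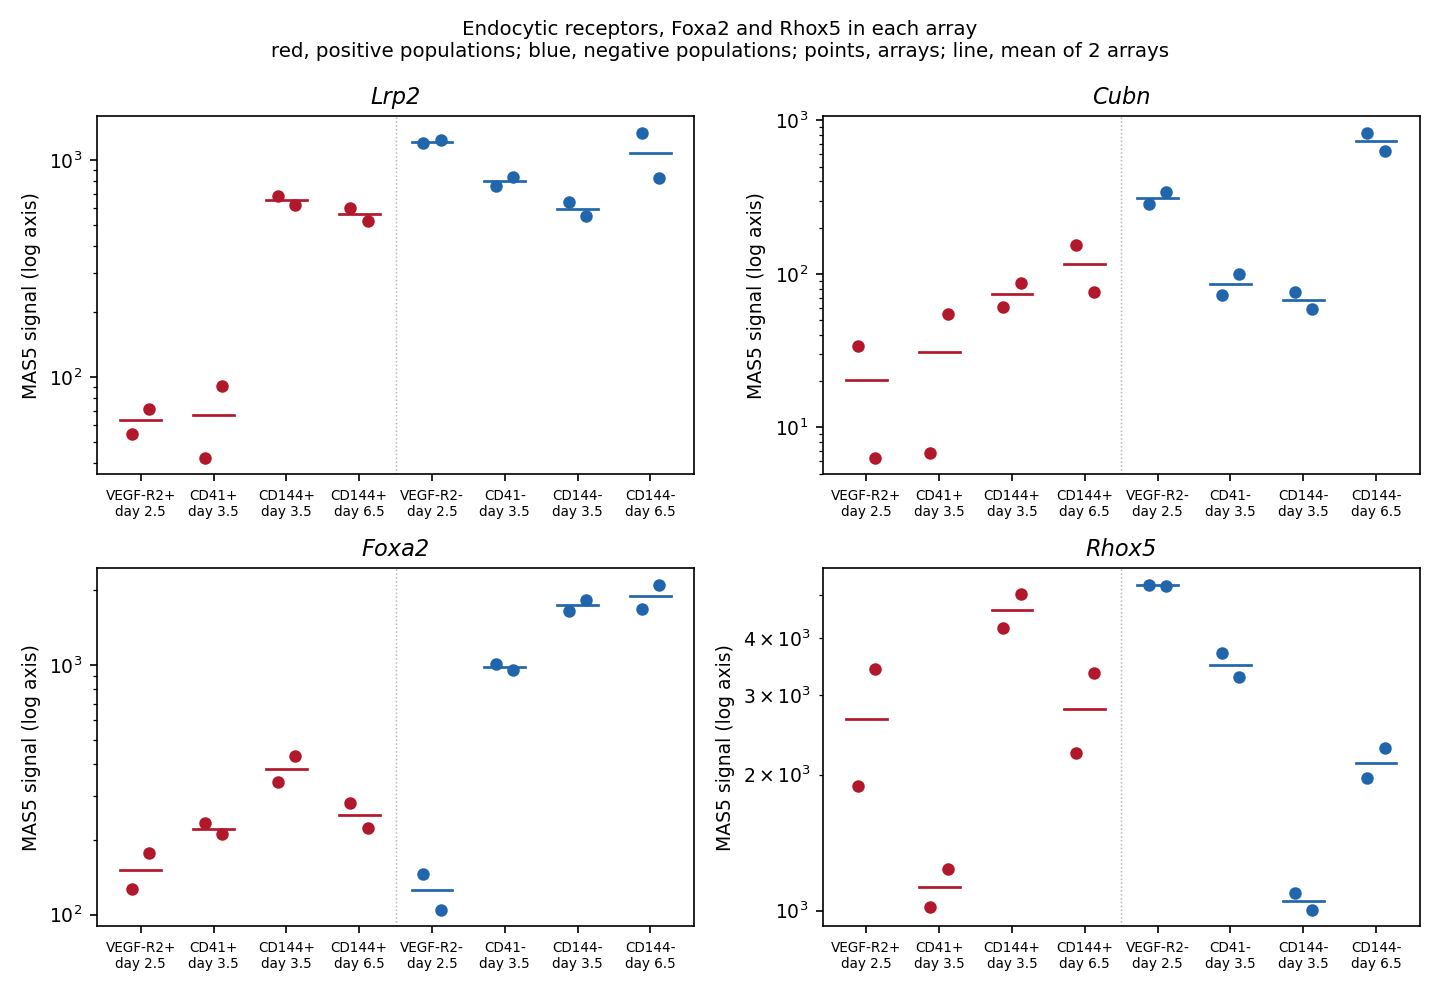
Signals of Lrp2, Cubn, Foxa2 and Rhox5 on each array (points) with the mean of the 2 arrays (lines), on log axes of signal, for the 4 positive (red) and 4 negative (blue) populations. Lrp2 is low in VEGF-R2 and CD41 positive cells only, Foxa2 is at 952 to 2096 in the 3 later negative populations and at most 430.01 elsewhere, and Rhox5 is highest in VEGF-R2 negative cells (5260 and 5226).

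Of the keratins of simple epithelia, Krt18 and Krt19 rose between the earliest cells and the CD144 sort of day 3.5 on both of its sides. Krt18 read 1692 and 2139 in VEGF-R2 positive and 8737 and 8068 in CD144 positive cells of day 3.5 (2.14 ± 0.20, adjusted p = 4.37e-06, limma), and 1339 and 1457 in VEGF-R2 negative and 5138 and 6039 in CD144 negative cells of day 3.5 (1.99 ± 0.20, adjusted p = 6.17e-06, limma). Krt19 rose with it, by 2.27 ± 0.25 (adjusted p = 2.81e-05, limma) and 2.35 ± 0.25 (adjusted p = 1.47e-05, limma). Krt8, the partner of Krt18, was already higher in VEGF-R2 positive than negative cells (3052 and 4036 against 1476 and 1327, 1.32 ± 0.19, adjusted p = 6.13e-05, limma), and rose by 2.07 ± 0.19 in the negative cells (adjusted p = 2.47e-06, limma). In the positive cells its change of 0.54 ± 0.19 did not pass the threshold (adjusted p = 0.0877, limma). The CD41 sort of day 3.5 differed from this on both of its sides. In CD41 negative cells neither Krt8 nor Krt19 was called against VEGF-R2 negative cells. Their changes were 0.28 ± 0.19 (adjusted p = 0.632, limma) and 0.88 ± 0.25 (adjusted p = 0.0698, limma). In CD41 positive cells Krt8 read 952 and 1419 (-1.59 ± 0.19 against VEGF-R2 positive cells, adjusted p = 2.43e-05, limma). Krt18 stood 2.52 ± 0.20 (adjusted p = 5.45e-07, limma) and Krt19 2.45 ± 0.25 (adjusted p = 6.76e-06, limma) higher in the CD144 than in the CD41 positive cells of that day. Smaller differences of Krt18 were a rise of 1.16 ± 0.20 from VEGF-R2 negative to CD41 negative cells (adjusted p = 0.00252, limma; 0.0515 without VEGF-R2 negative replicate 1), an excess of 0.59 ± 0.20 in CD144 positive over negative cells of day 3.5 (adjusted p = 0.0424, limma; 0.0757 to 0.271 without any 1 of the 4 arrays), and a rise of 1.11 ± 0.20 in CD144 negative cells to day 6.5 (adjusted p = 0.00966, limma). The last was lost without either array of day 3.5 or replicate 2 of day 6.5 (0.0581 to 0.188). At day 6.5 all 3 keratins had their highest signals in CD144 negative cells, where Krt8 read 10601 and 13476 against 7076 and 8164 in CD144 positive cells, a difference of -0.65 ± 0.19 (adjusted p = 0.0191, limma) that was lost without CD144 positive replicate 1 or CD144 negative replicate 2 (0.127 and 0.171) and called on 1 of 3 probe sets.

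Both enzymes were higher in VEGF-R2 positive than negative cells. Ctsh, cathepsin H, read 495 and 731 against 98.3 and 118 (2.42 ± 0.34, adjusted p = 6.92e-05, limma), and was down to 90.03 and 199 in CD41 positive cells (-2.11 ± 0.34, adjusted p = 0.000582, limma). Its rise in CD144 negative cells from day 3.5 to day 6.5, to 776 and 759, was 1.84 ± 0.34 (adjusted p = 0.0147, limma) and was lost without day 3.5 replicate 1 or either day 6.5 array (0.0502 to 0.277). Car4, a membrane-bound carbonic anhydrase, read 3347 and 2876 in VEGF-R2 positive and 1444 and 1466 in VEGF-R2 negative cells (1.09 ± 0.29, adjusted p = 0.00960, limma), a call lost without VEGF-R2 positive replicate 1 or either negative array (0.0540 to 0.0717). It was 477 and 1324 in CD41 positive cells (-1.96 ± 0.29 against VEGF-R2 positive cells, adjusted p = 0.000224, limma) and 6710 and 7307 in CD144 positive cells of day 3.5 (1.17 ± 0.29 against VEGF-R2 positive cells, adjusted p = 0.0179, limma). The second of these was lost without any 1 of the 4 arrays (0.0598 to 0.119). The CD144 and CD41 positive cells thus lay 3.13 ± 0.29 apart in Car4 (adjusted p = 2.01e-06, limma). Car4 read 2145 and 2097 in CD144 negative cells of day 3.5 (1.72 ± 0.29 below the positive ones, adjusted p = 0.000376, limma). At day 6.5 it read 5756 and 6465 on the positive and 5550 and 4584 on the negative side, and the difference of 0.27 ± 0.29 did not pass the threshold (adjusted p = 0.570, limma).

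Whether the CD144 sort separated the genes differently at the 2 days was tested directly. Of the 29 genes, 1 had a larger and 1 a smaller difference at day 6.5 than at day 3.5, where 0.364% and 0.426% of all probe sets did, and 5 passed the 90% bound, against 1.73%. The 2 called were Rbp4 (2.49 ± 0.39, adjusted p = 0.00514, limma) and Rhox5 (-1.76 ± 0.32, adjusted p = 0.0150, limma). The Rbp4 call held without any 1 array but not with a robust prior without trend (0.104), and that of Rhox5 was lost without CD144 positive day 3.5 replicate 2, day 6.5 replicate 1, either CD144 negative array of day 3.5 or CD144 negative day 6.5 replicate 2 (0.0659 to 0.0913) and with that prior (0.199). Fgb, with a difference of 3.46 ± 0.83, missed the threshold (adjusted p = 0.0634, limma), as did Ttr (2.07 ± 0.999, adjusted p = 0.425), Cubn (-2.76 ± 0.93, adjusted p = 0.213) and Foxa2 (-0.72 ± 0.32, adjusted p = 0.375), so a separation that differs between the days is not shown for these. For Car4 the result depended on the probe set. The chosen one was not called (-1.45 ± 0.40, adjusted p = 0.119, limma), and the other of its 2, at -1.60, was.

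**Figure D5:**
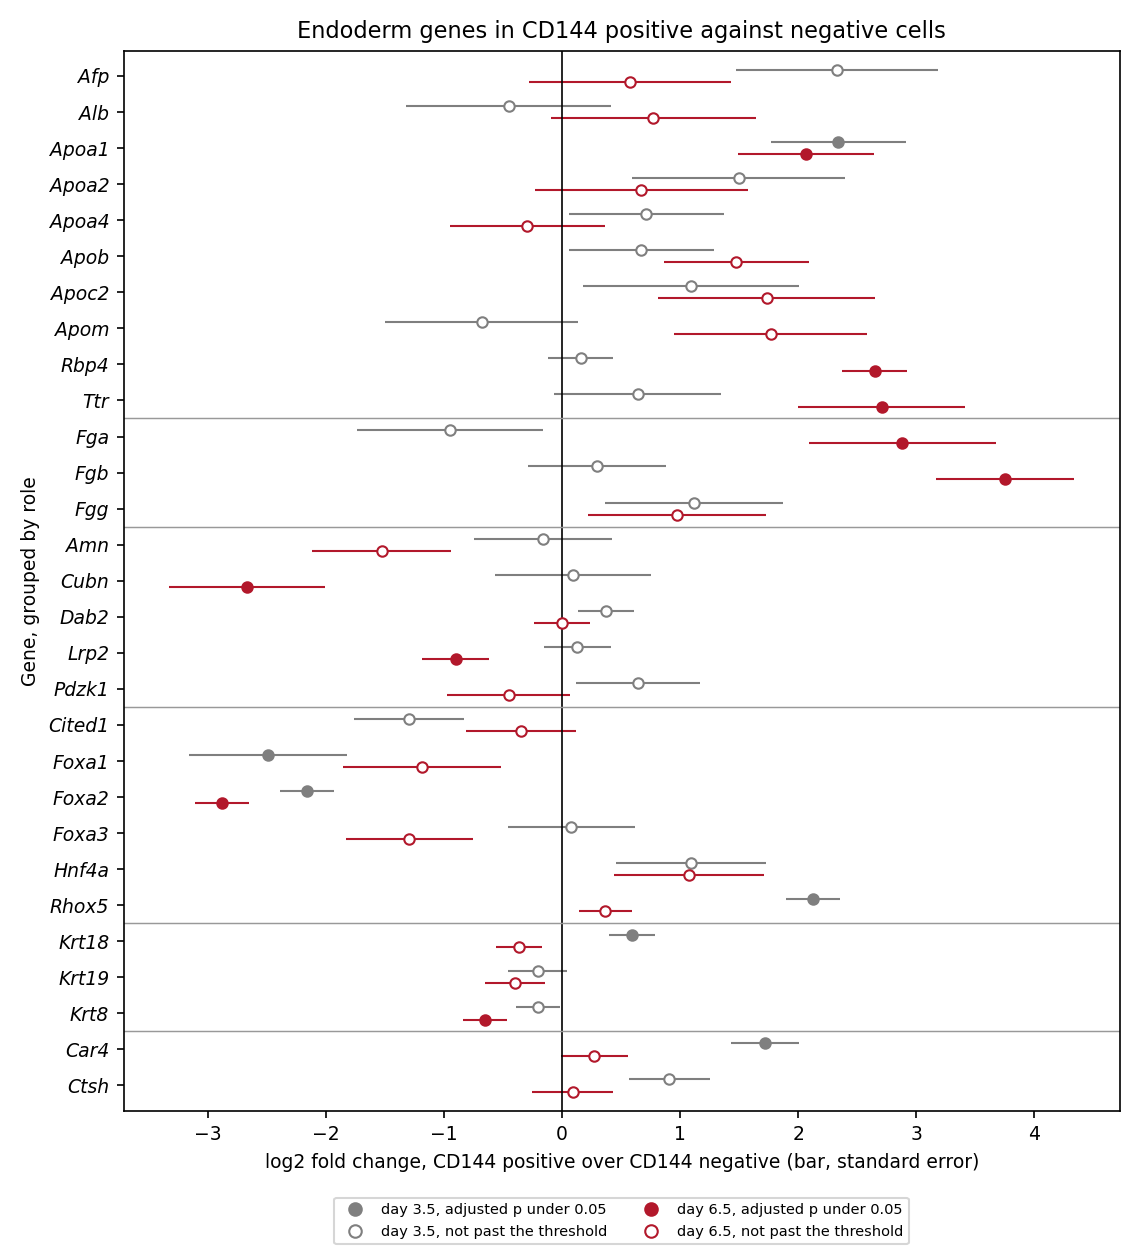
Log2 fold change of CD144 positive over CD144 negative cells for the 29 endoderm genes at day 3.5 (grey) and day 6.5 (red), with standard errors as bars and filled points where the adjusted p is under 0.05. At day 6.5 the filled points right of 0 are Ttr, Rbp4, Apoa1, Fga and Fgb, and those left of 0 are Cubn, Lrp2, Krt8 and Foxa2.

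Other endoderm genes were taken from 3 further lists. Of 8 other endoderm regulators, 7 were higher and 1 lower in VEGF-R2 positive than negative cells, led by Gata4 (2.93 ± 0.26, adjusted p = 8.8e-07, limma) and Sox7 (2.32 ± 0.29), and Nr5a2 was the lower one (-2.41 ± 0.27). In that comparison 4 of 5 early mesoderm genes were also higher, among them Eomes, which is on both lists (summed signal 23154 to 25006 against 3689 to 4207), 6 of 7 epithelial junction genes were lower (6362 to 6481 against 25834 to 26135) and 4 of 6 pluripotency genes were lower. In CD144 positive against negative cells of day 6.5, 2 were higher (Sox7 and Hhex, both also expressed in endothelium) and 2 lower: Cer1, a secreted inhibitor made by anterior endoderm, read 140 and 151 in positive and 2240 and 2595 in negative cells (-3.995 ± 0.25, adjusted p = 2.0e-08, limma), and Eomes read 205 and 123 against 2409 and 2451 (-3.88 ± 0.27, adjusted p = 7.0e-08, limma). In CD144 negative cells of day 3.5 Cer1 and Sox17, another endoderm regulator, stood 4.03 ± 0.25 and 2.40 ± 0.28 above VEGF-R2 negative cells, in the comparison in which Foxa2 rose. The early mesoderm genes Mixl1, Mesp1, Evx1 and Eomes rose in it too, by 1.47 to 2.14, and their list's sum went from 3689 to 4207 up to 12598 to 12732. Of 13 other secretory genes of yolk sac and liver, 2 rose from day 3.5 to day 6.5 in CD144 positive and 2 in CD144 negative cells. Spink3, a trypsin inhibitor, rose in both, from 652 and 797 to 4741 and 6640 (2.95 ± 0.34, adjusted p = 8.4e-05, limma) and from 244 and 216 to 4852 and 4955 (4.38 ± 0.34, adjusted p = 2.1e-06, limma). Across the sort at day 6.5 the difference of Spink3 was 0.19 ± 0.34 (adjusted p = 0.761, limma), where Ttr and Rbp4 were higher on the positive side. Across the CD144 sort at day 6.5, 2 of the 13 were higher (Igf2 and Apoe) and 1 lower (Apoc1). Of 9 genes of parietal endoderm and basement membrane, 6 rose in CD144 negative cells from day 3.5 to day 6.5, among them Thbd (2.94 ± 0.58, adjusted p = 0.0223, limma) and Lama1 (2.91 ± 0.36, adjusted p = 0.00046, limma), against 2 in CD144 positive cells (Lama1 and Plat).

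Markers of other cells moved in the same comparisons. From VEGF-R2 positive to CD144 positive cells of day 3.5, in which 7 endoderm genes rose, 5 of 7 epithelial junction genes rose (summed signal 6362 to 6481 and then 24414 to 24785), 4 of 6 pluripotency genes rose (Sox2 by 3.52, Nanog by 3.07, Zfp42 by 2.53 and Fgf4 by 2.01) and 1 fell, and 4 of 5 early mesoderm genes fell. Across the CD144 sort of day 3.5, Mixl1, Mesp1, Evx1 and Eomes were lower in positive cells (early mesoderm sums 1984 to 2114 against 12598 to 12732). Zfp42 and Fgf4 were higher there and Nanog and Tdgf1 lower. Between CD144 positive and negative cells of day 6.5, all 8 endothelial genes were higher (summed signal 25132 to 26442 against 732 to 816) and 6 of 7 epithelial junction genes lower (9968 to 9999.9 against 25058 to 28740). Nanog, Zfp42, Fgf4 and Tdgf1 were lower too (pluripotency sums 11307 to 11803 against 28215 to 28317). The summed signals of the 6 blood genes overlapped, at 17208 to 19617 and 18334 to 20718, with Gata1 and Itga2b higher and Hemgn lower in the positive cells. Of 6 fibroblast genes, 1 was higher in the positive cells, with sums of 6171 to 7441 against 3507 to 3796. At day 3.5 the fibroblast sums had been 1080 to 1206 in CD144 positive and 692 to 736 in CD144 negative cells, and 4 of the 6 genes rose and 1 fell to day 6.5 in the former while 3 rose in the latter. The blood sum in CD144 negative cells of day 3.5 was 432.5 to 567.4, and 4 of its 6 genes rose to day 6.5. In CD144 positive cells over the same days, in which 9 endoderm genes rose, it went from 2387 to 2656 up to 17208 to 19617, with Hba-x (5.75) and Hbb-y (4.88) called higher, while 3 epithelial junction, 4 pluripotency and 3 early mesoderm genes fell. Of 6 trophoblast genes, 2 were higher and 1 lower in CD144 positive than negative cells of day 6.5, with sums of 1467 to 1572 and 1010 to 1070, and of 5 early mesoderm genes, Eomes among them, 4 were lower. In CD41 positive against negative cells, in which 12 endoderm genes were lower, all 6 blood genes were higher (49552 to 63087 against 333 to 442), all 7 epithelial junction genes lower (2287 to 5540 against 28389 to 29763) and all 6 pluripotency genes lower (2496 to 6651 against 50888 to 53776). In CD144 against CD41 positive cells of day 3.5, in which 13 endoderm genes were higher, 6 of 7 epithelial junction genes and all 6 pluripotency genes were higher and all 6 blood genes lower. None of the marker genes was at a signal of 0, and the part of these cells in the endoderm results was not tested.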

How the data were processed

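RNA of 8 sorted populations of differentiating mouse ES cells was hybridized by the authors to 16 Affymetrix Mouse Genome 430 2.0 arrays, 2 per population from separate experiments. The authors deposited intensities in the form of MAS5 signals, brought on each array to 500 as a mean over values between the 2nd and the 98th percentile. The software version is not given in the sources used here. Signals on this scale are background-corrected for each probe set, so differences between dim values are uncertain. The study's dChip analysis and its E9.5 embryo arrays were not analysed here.

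Groups came from the sample labels. Of 45101 probe sets, 64 controls were left out. Of the 45037 tested, 34945 carry 1 gene symbol, 932 several and 9160 none in the platform annotation. After adding 6 (the 10th percentile of all values, 6.02, rounded), log2 signals entered 1 model over the 16 arrays in limma 3.58.1 (R 4.3.3) with a trend in the prior variance. P-values are two-sided and Benjamini-Hochberg adjusted within each of 11 comparisons and 1 test of a difference between days. The fit was tested on simulated data. Each gene was represented by its single-gene probe set with the highest mean. All 31 members were to be named, with fold, standard error and adjusted p for up to 6 called members in each direction of a comparison and, of the other lists, up to 2. The further probe sets of members and the genes of the sorting markers were given outside that rule. The members and the lists (other endoderm regulators, other secretory genes, parietal endoderm and basement membrane, epithelial junctions, trophoblast, endothelium, blood, pluripotency, early mesoderm and fibroblasts) were chosen with earlier results of these data known. Alternatives were quantile normalization, centring on the array median, an offset of 32, a floor of 50, leaving out dim probe sets, other arrays in the fit, a robust prior without trend, a replicate block, the probe set of largest variance, a 90% interval of the fold beyond 2, and leaving out each array. Promoters are from RefSeq (GRCm38.p6). Python 3.11.15 with pandas 2.3.3 and matplotlib 3.10.9 was used for the sums and the figures.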

Additional observations from a re-analysis of the deposited data

Results flagged for a closer look

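For 2 of the endoderm genes the difference between CD144 positive and negative cells was not the same at the 2 days. This was by a test of the difference itself in limma, on the probe set that stood for each gene. Rbp4 differed by 0.16 at day 3.5, where it read 367 and 332 in positive and 317 and 308 in negative cells, and by 2.65 at day 6.5, so that the later difference was larger by 2.4899 on the log2 scale (SE 0.39, adjusted p = 0.00514). The negative cells read 697 and 640.5 at day 6.5 and the positive cells 3718 and 4788.

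Rhox5 went the other way. Its difference of 2.12 at day 3.5 came to 0.37 at day 6.5, a change of -1.7571 (SE 0.32, adjusted p = 0.0150). On the negative side it read 1095 and 1005 at day 3.5 and 1966 and 2286 at day 6.5, and on the positive side 4208 and 5017 and then 2234 and 3352. Neither call was made with a robust prior without trend (adjusted p = 0.104 for Rbp4 and 0.199 for Rhox5). Of the pluripotency genes, only Zfp42 (-1.84 ± 0.33, adjusted p = 0.0131, limma) and Fgf4 (-2.43 ± 0.36, adjusted p = 0.00433, limma) were called in the same test, both lower. Like Rhox5 they were higher in CD144 positive than negative cells of day 3.5, by 1.155 and 0.98. Whether Rhox5 changed with them was not tested.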

How the results depend on the processing

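Over 92 calls of a named gene in a comparison and 1335 alternatives to them, 1058 stayed called in the same direction, 277 lost the call and 0 reversed, and 38 of the 92 were called under every setting tried. The counts of endoderm genes called changed by more than 1.5 times as follows, and the cause was not tested. With the 90% bound they were 4 in place of 10 in the VEGF-R2 sort, 5 in place of 13 in the CD41 sort, 4 in place of 7 from VEGF-R2 positive to CD144 positive cells of day 3.5, and 5 in place of 2 for the difference between days. With only the compared populations in the fit they were 7 in place of 13 in the CD41 sort, 7 in place of 13 between CD144 and CD41 positive cells, 9 in place of 3 from VEGF-R2 negative to CD41 negative cells and 15 in place of 7 to CD144 negative cells of day 3.5. With only the 8 arrays of one kind, 8 were called between CD144 and CD41 positive cells, 8 and 13 in the latter steps of the negative cells and 13 in place of 7 in their step to day 6.5. With a robust prior without trend these were 8 between CD144 and CD41 positive cells, 1 in place of 3 from VEGF-R2 negative to CD41 negative cells, 1 in place of 7 in the negative step to day 6.5, and 0 in place of 2 for the difference between days. That negative step gave 3 with arrays centred on their median and 4 with signals under 50 set to 50, a floor under which 4 genes differed between days. Leaving out probe sets below the median gave 4 in place of 9 from day 3.5 to day 6.5 in CD144 positive cells.

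Leaving out 1 array at a time, with the lone array taken to vary like the rest, gave 6 to 8 calls in the VEGF-R2 sort, 8 to 15 in the CD41 sort, 3 to 6 and 4 to 6 in the CD144 sorts of day 3.5 and day 6.5, 5 to 9 from VEGF-R2 to CD41 positive cells, 4 to 7 to CD144 positive cells, 5 to 8 in their later step, 8 to 14 between CD144 and CD41 positive cells, 1 to 2 and 5 in the steps from VEGF-R2 negative cells, 1 to 4 in the negative step to day 6.5 and 1 to 2 for the difference between days.

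Same-numbered arrays did not deviate together (28 pairs of populations, correlations of -0.17 to 0.157, 2 of them over 0.1), so the numbers were not used as pairs. With a replicate block the counts were 10, 13, 7 and 9 in the 4 sorts and 11 in the later CD144 positive step, and all 92 calls of a named gene were kept. Centring on the array median moved the median of all probe sets by up to -0.153, in the CD144 sort of day 3.5. With 2 arrays per population, the size of a difference against signals near the offset, as for Fga and Fgb, is uncertain.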
